A study of Prunus avium with 27 samples.

Results

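The comparison set flower buds of sweet cherry (Prunus avium, cultivar Burlat) collected on 5 December 2014 against buds collected on 21 October 2014 and 27 January 2015, in RNA. It used 9 of the 27 libraries of the series, 3 per date, chosen by their labels: the December libraries on one side and the plain mean of the October mean and the January mean on the other. The December and October buds are labelled dormant and the January buds non-dormant, so dormant buds stand on both sides and dormancy label cannot be told apart from date. All buds came from orchard trees in south-west France, were taken from the same branches for RNA and chromatin at each date, and had no treatment stated in the labels. Separate trees per replicate are not stated in the labels, and the p-values cover only the variation among the sampled libraries, which may be technical. RNA levels were deposited for 29449 genes as TPM, a unit that is scaled to a fixed total, corrects for gene length and keeps no sequencing depth. The depth is therefore unknown. Each library held 17105 to 18097 genes at 1 TPM or more. A gene was tested if at least 3 of the 9 libraries reached 1 TPM, which 18384 genes did (62.4%). Of the 11065 others, 7278 were listed at 0 in all 9 libraries.

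Flower buds of temperate fruit trees form in summer, stop growing in autumn and pass the winter in dormancy. Prolonged cold is needed before they regain the ability to grow, and warmth then drives budbreak and flowering. Transcripts of cold response, storage and hormone metabolism are known to turn over during this period in fruit trees. The tables pair their identifiers with no gene names or functions, and 0 of them were found among the 37283 sweet cherry genes of RefSeq. Genes are therefore given by scaffold and position as the RNA tables list them, with identifiers for the 4 largest changes, and no role is given to any gene. For the same reason the tissue label could not be checked against marker genes. No source used here names the genome build. Positions may thus refer to another species' genome, and no sequence is printed.

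December buds differed from the mean of the October and January buds at 8304 of the 18384 tested genes (45.2%). Levels were higher in December for 3821 genes (20.8%) and lower for 4483 (24.4%). Most of these departures were small: the median was 0.47 among higher genes and -0.59 among lower genes on the log2(TPM + 1) scale, a scale that understates the change of low genes. Departures of at least 2-fold were mainly downward, with 812 genes lower (4.42%) and 342 higher (1.86%), and at 4-fold or more 86 genes were lower and 35 higher. The test was limma with an intensity trend on all 9 libraries, two-sided, and a gene was called at a Benjamini-Hochberg adjusted p under 0.05. The excess of lower genes among all calls turned with the scaling: aligning library medians gave 4415 higher and 4303 lower, and quantile normalization gave 4779 higher and 4035 lower. The excess among departures of at least 2-fold did not turn, with 373 higher and 748 lower after aligning medians and 449 higher and 675 lower after quantile normalization. In whole buds, fewer cells of a type and less RNA per cell cannot be told apart.

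**Figure D1:**
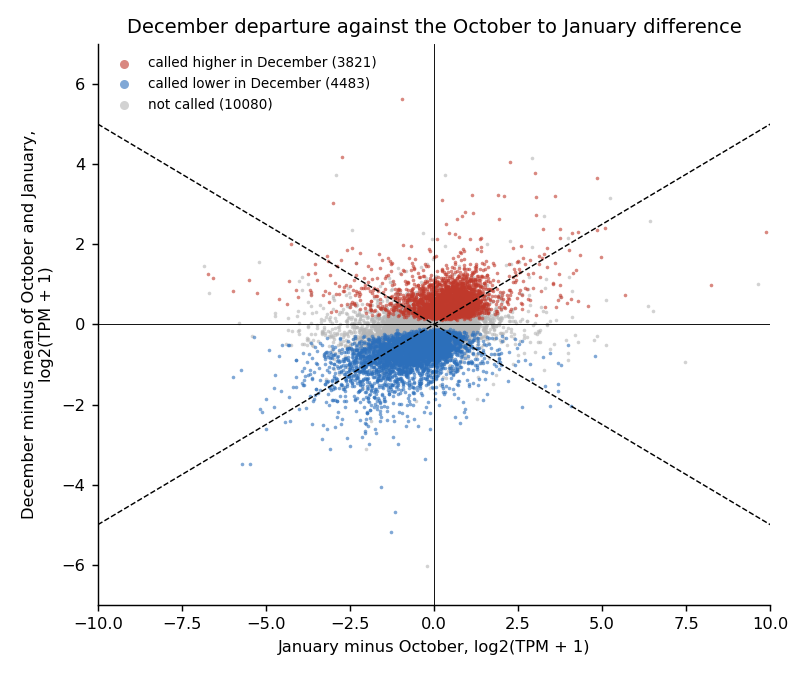
Each point is 1 of 18384 tested genes. The vertical axis gives the level in December minus the mean of October and January, and the horizontal axis January minus October, both on the log2(TPM + 1) scale. Along the dashed lines December equals October or January, and the 3821 called higher and 4483 called lower genes lie above and below the horizontal line at 0.

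December was an extreme of the 3 dates for most called genes. Of the 3821 higher genes, 3076 (80.5%) had their highest mean level in December, and the other 745 had a December level between October and January. Of the 4483 lower genes, 3553 (79.3%) had their lowest mean level in December and 930 lay between. A call asks for a departure from the midpoint of the ends, which itself favours a December extreme. The share of such extremes over all tested genes was not counted, so these shares are a description. Genes in between were called because December departed from the midpoint of the ends, so unequal distances to the ends follow from that choice and are given as a description. Among the 930 lower ones, the median distance of December was 1.30 log2 units from October and 0.25 from January, and 785 of them had a higher mean level in October than in January. The 745 higher ones lay 0.75 from October and 0.18 from January in the median, and 583 of them had a higher mean level in January than in October. Counted by libraries, 1780 of the higher genes had all 3 December libraries above all 6 others, and 2105 of the lower genes had all 3 below. Over all tested genes, called or not, 1865 (10.1%) had their December libraries above all others and 2189 (11.9%) below all others.

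At the genes with a strong December extreme, the ends mostly differed in 1 direction. Among the 709 genes that were lowest in December and at least 2-fold lower, the October level exceeded the January level in 607 and was below it in 102. Their median December level was 1.91 log2 units below October and 0.82 below January. Of the 309 genes that were highest in December and at least 2-fold higher, 234 had a higher mean level in January than in October and 75 a lower one. Their median December level was 1.59 log2 units above October and 0.93 above January. October and January differed by under 0.25 log2 units for 74 of the 709 (10.4%) and 34 of the 309 (11%), beside 5210 of all tested genes (28.3%). They differed by at least 2-fold for 422 and 138. The 709 and 309 were chosen by the size of their departure and the tested genes were not. No lack of near-equal ends is therefore read from these shares. Among all tested genes, 3694 changed at least 2-fold between October and January at an adjusted p under 0.05 in limma. Of those, 2584 were lower in January and 1110 higher. The order of the ends at any size was not counted over all tested genes. The orders given for the 709 and 309 are therefore a description, and no trait particular to them is read from it. The comparisons of December with each end share the December libraries and are given as a description. Over all tested genes, 30.3% of the sum of squares between dates lay on the contrast of December with both ends, and the rest on the difference between January and October.

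The genes changed at least 2-fold held a few percent of the RNA. The 812 genes at least 2-fold lower held 1.26%, 1.17% and 1.23% of all TPM in the December libraries, against 5.63%, 5.39% and 5.37% in the October libraries and 2.40%, 2.51% and 2.68% in the January libraries. The 342 genes at least 2-fold higher held 3.49%, 3.72% and 3.31% in December, 1.63%, 1.62% and 1.65% in October and 2.08%, 1.95% and 2.09% in January. No December library overlapped a library of another date in either set. The genes were chosen by this contrast, so these shares show size only.

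**Figure D2:**
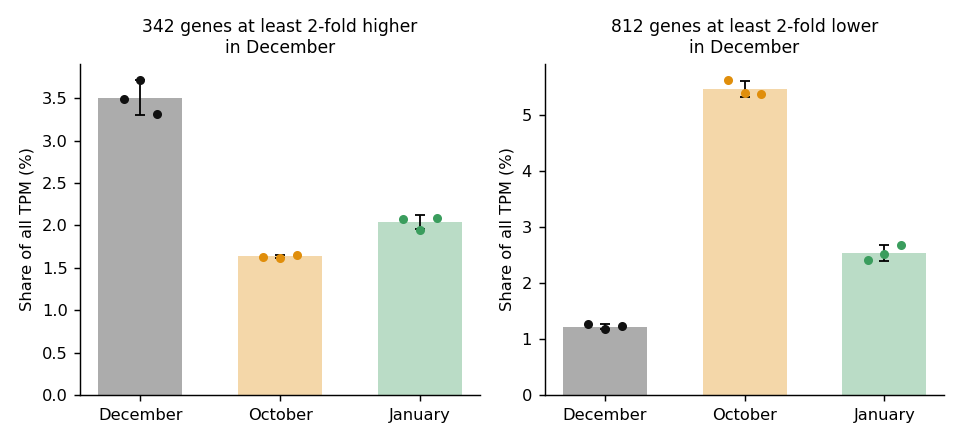
Share of all TPM held by the 342 genes at least 2-fold higher in December (left) and by the 812 genes at least 2-fold lower (right), in percent. Points are the libraries, bars their means and error bars the SD of 3 libraries. The lower genes averaged 1.22% in December, 5.46% in October and 2.53% in January.

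Genes are ranked here by log2 departure among called genes whose 3 December libraries lay on one side of all 6 others, with a mean of at least 5 TPM in December for rises and at both ends for falls. The largest rise was that of PRUPE_ppa021384mg (scaffold 5, 10107138 to 10107696). It had 118, 115 and 105 TPM in the December libraries, against 3.01, 1.59 and 2.13 TPM in October and 0, 0 and 3.57 TPM in January. It was thus high in every December library and under 4 TPM in each library of both ends. Its departure was 5.63 log2 units (SE 0.42), with an adjusted p of 5.38e-06 in limma (Benjamini-Hochberg), and December exceeded October by 5.16 (SE 0.49) and January by 6.10 (SE 0.49). PRUPE_ppa022712mg, which ends 1995 bp before it on scaffold 5 (10104606 to 10105143), had 209.9, 192 and 151 TPM in December, against 29.9, 23.6 and 23.4 TPM in October and 1.76, 1.31 and 8.55 TPM in January. Here the ends differed, with October above January in every library. Its departure was 4.17 (SE 0.37, adjusted p 1.4e-05 in limma), made up of 2.80 (SE 0.42) over October and 5.54 (SE 0.42) over January.

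The next 6 rises under this rule varied in their levels at the ends. Another 4 called rises exceeded the one ranked 8 but had December libraries that overlapped others. On scaffold 6 at 25937090 to 25938833, a gene had 236, 199 and 183 TPM in December, against 4.77, 4.37 and 4.68 TPM in October and 20.0, 28.8 and 30.2 TPM in January, a departure of 4.07 (SE 0.13). January had kept part of the December level there. At scaffold 4, 8581869 to 8583642, levels were 39.6, 38.9 and 30.0 TPM in December, 0.825, 0.819 and 4.52 TPM in October and 2.51, 3.92 and 10.3 TPM in January (departure 3.24, SE 0.42). At scaffold 8, 20997622 to 20998256, they were 124, 122 and 99.5 TPM in December, 4.72, 8.42 and 3.28 TPM in October and 27.2, 21.6 and 25.7 TPM in January (departure 3.20, SE 0.21). In both genes December stood clear of the other dates. The gene at scaffold 7, 2480885 to 2482027, had 84.8, 93.0 and 57.9 TPM in December, 0.663, 0.538 and 9.74 TPM in October and 22.9, 12.7 and 44.4 TPM in January. Replicate 3 of each end lay well above the other libraries of its date, and the SE of the departure of 3.18 was the largest of the 8 ranked rises, at 0.58. December exceeded January there by 1.67 (SE 0.67), a difference with an adjusted p of 0.0821 in limma. The gene at scaffold 6, 25929418 to 25929861, had 7.09, 9.34 and 8.87 TPM in December, was listed at 0 in all 3 October libraries and had 0, 0 and 0.604 TPM in January (departure 3.12, SE 0.20). At scaffold 1, 11693616 to 11694684, the order of the ends was reversed, with 52.9, 49.5 and 40.0 TPM in December, 18.2, 13.6 and 15.7 TPM in October and 0.624, 0.756 and 2.09 TPM in January (departure 3.03, SE 0.20). The Benjamini-Hochberg adjusted p of these 6 genes in limma ran from 3.52e-08 to 0.00145. Among tested genes, 11 reached 1 TPM in all 3 December libraries and in none of the other 6, and all 11 were called higher. The ranked gene at scaffold 6, 25929418, is 1 of these 11. In the other direction, 619 tested genes were under 1 TPM in all 3 December libraries and passed the filter only through October or January, and 369 of them were called lower. Genes that pass the filter in these ways had to differ between December and some other libraries, which favours a call without ensuring one. Of the departures of at least 2-fold, 5 rises and 139 falls were such genes, which leaves 337 rises and 673 falls without them.

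**Figure D3:**
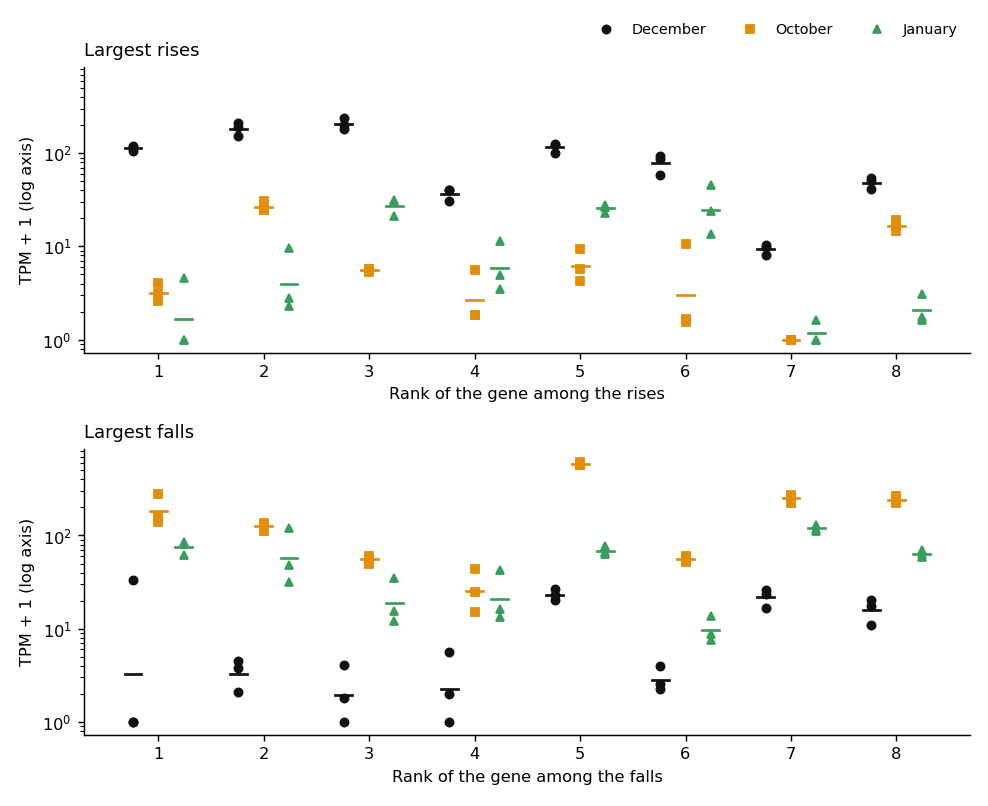
Levels, as TPM + 1 on a log axis, of the 8 top-ranked rises (top) and falls (bottom) in December among called genes with separate December libraries and at least 5 TPM in December (rises) or at both ends (falls). Points are libraries and bars the mean of log values per date; 4 rises and 2 falls larger than rank 8 did not meet these conditions and are not shown.

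Among falls, the short identifier EPlPPEG00000013528 (scaffold 2, 13219444 to 13219553) ranked first. It had 32.4, 0 and 0 TPM in December, 159, 279.9 and 139 TPM in October and 60.7, 79.6 and 85.0 TPM in January. The December libraries were below all others but uneven, and the departure of -5.20 had an SE of 0.93 (adjusted p 0.00131 in limma). PRUPE_ppa013980mg (scaffold 3, 17445858 to 17446271) had 1.09, 3.47 and 2.74 TPM in December, against 135, 111 and 129.9 TPM in October and 47.1, 30.8 and 119 TPM in January. Its departure was -4.70 (SE 0.36, adjusted p 6.48e-06 in limma), and December lay 5.27 (SE 0.42) below October and 4.12 (SE 0.42) below January.

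The falls ranked 3 to 8 also had more RNA in October than in January in the mean. Another 2 called falls were larger than rank 4 but had under 5 TPM in January and so stood outside the rule. At scaffold 2, 18869663 to 18873987, levels were 0.53, 0.914 and 0.758 TPM in December, 129, 136 and 149 TPM in October and 2.1, 1.47 and 1.46 TPM in January (departure -3.48, SE 0.14). At scaffold 7, 20209026 to 20209773, they were 1.49, 0.319 and 1.2 TPM in December, 168, 136 and 132 TPM in October and 3.73, 2.43 and 1.12 TPM in January (departure -3.49, SE 0.26). Both were near their December level in January, and in the second the December and January libraries overlapped. The gene 961 bp further along scaffold 3 (17447232 to 17447614) had 0.788, 0 and 3.03 TPM in December, 56.2, 49.0 and 59.0 TPM in October and 14.3, 11.2 and 34.3 TPM in January (departure -4.06, SE 0.42). At scaffold 2, 23427501 to 23427994, levels were 0.966, 0 and 4.63 TPM in December, 13.9, 23.6 and 42.8 TPM in October and 15.0, 12.2 and 41.4 TPM in January (departure -3.36, SE 0.55). Replicate 3 was the highest library of all 3 dates at both genes. At scaffold 2, 19554547 to 19556019, the 19.4, 21.8 and 25.8 TPM of December stood against 615, 576 and 564 TPM in October and 65.6, 75.9 and 62.7 TPM in January (departure -3.11, SE 0.09). That gene regained little of its October level by January. At scaffold 3, 384737 to 385498, there were 1.27, 2.96 and 1.54 TPM in December, 53.3, 51.4 and 59.2 TPM in October and 6.59, 7.76 and 12.8 TPM in January (departure -3.03, SE 0.22). The gene at scaffold 4, 3727961 to 3728810, had 22.8, 15.6 and 24.98 TPM in December, 264, 269 and 220.0 TPM in October and 115, 111 and 129 TPM in January (departure -2.99, SE 0.13). Its January level was closer to October than that of the ranked genes at scaffold 2, 19554547, and scaffold 3, 384737. At scaffold 1, 29882007 to 29883457, levels were 19.2, 16.6 and 9.89 TPM in December, 264, 239 and 221 TPM in October and 58.1, 68.5 and 61.7 TPM in January (departure -2.98, SE 0.16). Adjusted p-values of the genes ranked 3 to 8 in limma (Benjamini-Hochberg) ran from 3.52e-08 to 0.000739.

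Some genes returned in January to nearly their October level, which makes December the odd date out. The ends lay within 0.25 log2 units at 620 of the 1679 called rises with separate December libraries and at least 5 TPM in December. They did so at 903 of the 1846 called falls with separate December libraries and at least 5 TPM at both ends. The share was 28.3% of all tested genes, 21.7% of all called rises and 26.3% of all called falls. Asking for separate December libraries itself removes genes with December between the ends, so no excess over all tested genes is read from the 620 and 903. Asking for 5 TPM at both ends itself removes falls with a low end, so the 620 and 903 are not compared between directions. The strongest fall of this kind lay at scaffold 7, 20620204 to 20620915, with 14.0, 17.9 and 11.2 TPM in December, 95.8, 106 and 85.2 TPM in October and 76.3, 91.7 and 94.3 TPM in January (departure -2.60, SE 0.13). Next came scaffold 3, 21629970 to 21632406, with 4.84, 4.84 and 3.19 TPM in December, 23.3, 24.8 and 25.1 TPM in October and 20.6, 25.3 and 21.5 TPM in January (departure -2.22, SE 0.13). The other, at scaffold 1, 22015773 to 22016550, had 23.7, 29.7 and 30.4 TPM in December, 112, 121 and 95.3 TPM in October and 122, 109.7 and 129.7 TPM in January (departure -2.005, SE 0.10). The libraries of October and January overlapped at all 3 genes, while those of December stood apart. Their adjusted p from limma (Benjamini-Hochberg) was 4.64e-07, 1.33e-06 and 4.64e-07. Rises with near-equal ends were led by the gene at scaffold 6, 25929418, given above. That gene passed the filter through its December libraries alone. Its ends were near-equal because both lay at or near 0 TPM, so no return to an October level is read there. At scaffold 3, 20169454 to 20170121, levels were 7.58, 7.49 and 5.63 TPM in December, 0, 1.59 and 1.02 TPM in October and 0.823, 0.789 and 0.899 TPM in January (departure 2.14, SE 0.27). At scaffold 10, 557556 to 560526, they were 64.2, 52.7 and 36.1 TPM in December, 14.0, 13.2 and 13.2 TPM in October and 10.3, 14.3 and 11.6 TPM in January (departure 1.89, SE 0.17). The adjusted p of these rises in limma was 0.00014 and 1.3e-05.

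Ranked by TPM difference under the same conditions, the genes were abundant ones. The largest excess, 1628 TPM over the mean of the ends, was at scaffold 1, 31121070 to 31121765, with 4091, 5907 and 4868 TPM in December, 3579, 3844 and 3768 TPM in October and 3093, 2460.1 and 3221 TPM in January. The December libraries did not overlap the others, but the departure was only 0.57 (SE 0.12, adjusted p 0.00251 in limma), and quantile normalization ended the call with a departure of 0.05 and an adjusted p of 0.39. At scaffold 6, 25650663 to 25652285, the December libraries had 2018, 2642 and 2207 TPM, those of October 1419.8, 1598 and 1507 TPM and those of January 959, 670.0 and 908 TPM (departure 1.02, SE 0.12). At scaffold 3, 14565856 to 14567470, there were 1959, 2491 and 1984 TPM in December, 1451, 1513 and 1574 TPM in October and 587, 429 and 687 TPM in January (departure 1.21, SE 0.13). All 3 of these abundant rises had less RNA in January than in October. The largest shortfalls were -654 TPM at scaffold 8, 15033403 to 15033815, -611 TPM at scaffold 2, 23588305 to 23589615, and -575 TPM at scaffold 5, 1202691 to 1207562. The gene on scaffold 8 had 490.4, 467 and 597 TPM in December, 1249, 1298 and 1376 TPM in October and 1078, 936 and 1097 TPM in January (departure -1.17, SE 0.08). The gene on scaffold 2 had 91.0, 89.6 and 93.6 TPM in December, 1301, 1183 and 1177 TPM in October and 159, 195 and 197 TPM in January (departure -2.36, SE 0.07). The gene on scaffold 5 had 514, 505 and 438 TPM in December, 1573, 1542 and 1495 TPM in October and 568, 526 and 659 TPM in January (departure -0.96, SE 0.07). In January the first was nearer its October level, and the other two were nearer their December level. Adjusted p-values of these last 5 genes in limma ran from 3.52e-08 to 7.45e-05.

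Some genes changed at least 2-fold in December were next to each other. Of the 342 higher genes, 38 (11.1%) had an adjacent gene that was also at least 2-fold higher, in 20 pairs with a median gap of 2071 bp. Of the 812 lower genes, 115 (14.2%) stood in 63 pairs with a median gap of 3100 bp. Among tested neighbours of the 342, 7.81% were themselves at least 2-fold higher, beside 1.86% of all tested genes. Among tested neighbours of the 812, 11% were at least 2-fold lower, beside 4.42% of all tested genes. Both of the 2 largest rises belong to 1 such pair, and the genes at scaffold 6, 25929418 and 25937090, form another with a gap of 7229 bp. On scaffold 3 the run from 17444412 to 17448275 held 4 adjacent lower genes with departures of 1.99 to 4.70 in size, among them PRUPE_ppa013980mg and the gene at 17447232. Another 4 lower genes were adjacent on scaffold 1 from 38497391 to 38546068 (sizes 1.11 to 2.66). No source used here says whether reads were shared between similar neighbouring genes, so values within a pair may not be independent. The listed spans of 2 higher pairs and 1 lower pair overlap, and how the counting treated strand is not given. Lower pairs at scaffold 2, 19046070 (gap 260 bp), and scaffold 4, 15082890 (gap 599 bp), have identifiers that differ in a suffix only. Whether such a pair is 1 gene is not given, and both pairs are counted above.

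The share of genes called was larger among abundant genes. Among 4933 genes with a mean of 50 TPM or more over the 9 libraries, 32.3% were higher and 27.4% lower in December. From 5 to 50 TPM the shares of 9810 genes were 20.0% higher and 23.6% lower. Below 5 TPM they were 7.31% and 22.4% of 3641 genes. The SE of the departure was larger for low genes, with a median of 0.21 below 5 TPM and 0.07 at 50 TPM or more. Genes changed at least 2-fold had shorter listed spans, with a median of 1671 bp for the 342 higher and 1506 bp for the 812 lower genes, against 2540 bp for all tested genes.

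At most genes that changed at least 2-fold between October and January, December stood closer to January than to October. Between October and January 3694 genes (20.1%) changed by at least 2-fold in limma at an adjusted p under 0.05. The share of that change already present in December, taken per gene as December minus October over January minus October on the log2 scale, had a median of 78.0%, with quartiles of 55.4% and 101%. By then 45 of the 98 days (45.9%) had passed. For the 2584 genes lower in January than in October the median share was 80.6%, and for the 1110 genes higher in January it was 71.9%. December lay beyond the January level for 951 genes (25.7%) and on the far side of the October level for 115. The ends enter both parts of this ratio, so it is a description without a test. Setting December against the point on the straight line between October and January at its own date, rather than against the plain mean, called 8631 genes, 3990 higher and 4641 lower.

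**Figure D4:**
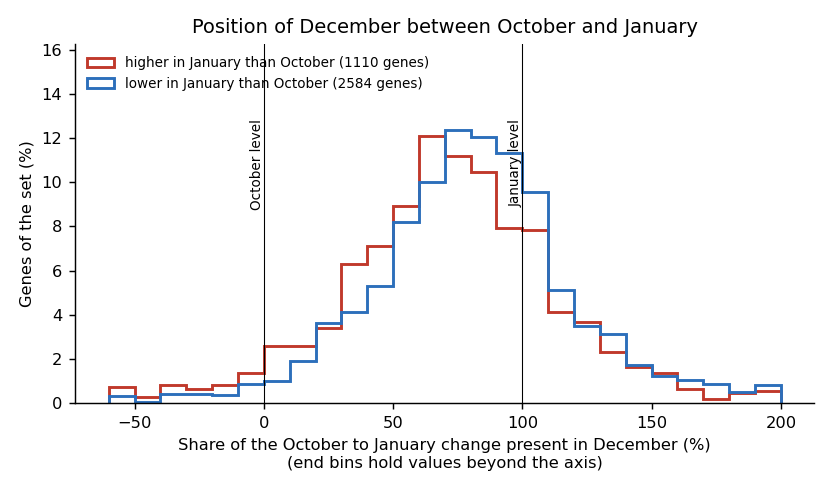
Distribution over genes of the share of the October to January change present in December, in percent, for 1110 genes higher and 2584 genes lower in January than in October by at least 2-fold. The vertical axis gives the percent of each set per bin. Most genes lie past 50%, and 25.7% of both sets together lie past the January level at 100%.

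H3K4me3 is trimethylation of histone H3 on lysine 4, a chromatin mark typical of the beginning of genes that are being transcribed. It was measured in 2 libraries per date from the same branches, as a normalised signal over 25635 regions. In the same contrast 47 of 15360 tested regions were called (0.306%), 22 with more signal in December (0.143%) and 25 with less (0.163%), by limma on log2(signal + 1). Departures of at least 2-fold numbered 7 higher (0.0456%) and 12 lower (0.0781%). Both December libraries were above all 4 others at 1875 regions (12.2%) and below them at 432 (2.81%). At an unadjusted p under 0.05 there were 2237 regions. The number of calls depended on the choices made. It was 0 without a filter on low signal (2191 regions at an unadjusted p under 0.05), 647 with library medians aligned, 1332 after quantile normalization and 452 by edgeR on the recovered reads. Leaving out single libraries gave 99 without October replicate 2, 324 without October replicate 3, 37 without December replicate 2, 84 without December replicate 3, 5506 without January replicate 2 and 71 without January replicate 3. No balance of gains and losses is read from these counts. The median of all regions was 0.14 log2 units higher in December as deposited.

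Relative to all joined genes, the median H3K4me3 departure was positive at the starts of genes with higher RNA in December and negative at those with lower RNA. As deposited, the median was above 0 at both, and at 59.9% of the genes with lower RNA the signal was higher in December. A tested region was joined to 12775 tested genes, and the median H3K4me3 departure over all of them was 0.14. It was 0.21 at the 2923 genes with higher RNA and 0.05 at the 3198 genes with lower RNA, which is 0.07 above and -0.09 relative to all joined genes. At the 229 genes with RNA at least 2-fold higher the median was 0.32, or 0.18 relative to all, and at the 491 genes at least 2-fold lower it was -0.18, or -0.32 relative to all. At 4-fold or more the medians were 0.42 (22 genes) and -0.54 (44 genes) relative to all. Genes not called in RNA had a median of 0.14. These relative medians kept their sign without each of the 6 H3K4me3 libraries in turn, at 0.066 to 0.075 for genes with higher RNA and -0.094 to -0.086 for genes with lower RNA. Across the 12775 genes the 2 departures had a Pearson correlation of 0.35. Genes are not independent replicates, and the RNA and H3K4me3 libraries of a date share branches. The quartiles of the H3K4me3 departure over all joined genes were 0.03 and 0.24, beside -0.35 and 0.25 for the RNA departure over all tested genes. Of the 342 and 812 genes, 113 and 321 had no tested region joined to them.

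**Figure D5:**
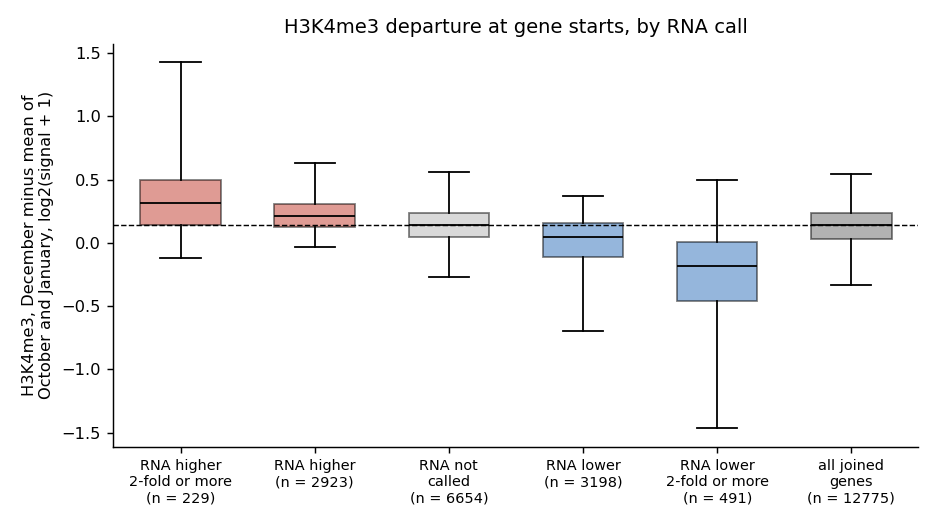
H3K4me3 departure in December at gene starts, on the log2(signal + 1) scale, by the RNA call of the gene. Boxes span the quartiles with the median as a line, whiskers the range from 5% to 95% of genes, and the dashed line is the median over all 12775 joined genes, 0.14. The medians run from 0.32 at genes with RNA at least 2-fold higher to -0.18 at genes with RNA at least 2-fold lower.

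Of the 18 regions with more signal in December and tested RNA, 14 had higher RNA and 1 lower RNA, beside 20.8% and 24.4% of all tested genes. Of the 23 with less signal, 19 had lower RNA and 0 higher. The gene at scaffold 4, 9600251 to 9601770, had a signal of 70.4 and 81.2 in the December libraries, 0.183 and 0.154 in October, the lowest value of either library, and 72.3 and 58.5 in January. Its RNA was 55.0, 68.6 and 56.7 TPM in December, 2.40, 1.96 and 2.23 TPM in October and 35.3, 29.8 and 68.1 TPM in January. In both assays the January libraries overlapped those of December, and October was the low date. At scaffold 1, 11693616, one of the 8 ranked rises, the signal was 135 and 117 in December, 105 and 113 in October and 16.4 and 12.6 in January, so the low date of both assays was January. At scaffold 10, 557556, one of the rises with near-equal ends, it was 74.5 and 71.3 in December, 6.59 and 13.1 in October and 39.8 and 21.1 in January, and December was the highest date of both assays. As deposited these signals departed by 3.12 (SE 0.42), 1.62 (SE 0.21) and 2.07 (SE 0.36). Limma gave these departures adjusted p-values of 0.00861, 0.00778 and 0.0213. Relative to the median of all regions they were 2.99, 1.49 and 1.93, which was not tested.

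Among joint falls, the gene at scaffold 5, 13017500 to 13022499, had a signal of 0.151 and 0.113 in December, the lowest value of either library, 74.5 and 65.4 in October and 6.48 and 16.7 in January. Its RNA was 6.72, 5.04 and 5.60 TPM in December, 41.8, 36.3 and 33.7 TPM in October and 9.52, 10.2 and 9.42 TPM in January. Both assays had their lowest values in December and a small return in January. At scaffold 2, 23588305, the second of the abundant falls, the signal was 18.0 and 34.1 in December, 133 and 138 in October and 57.5 and 38.3 in January. At scaffold 1, 4914219 to 4915795, it was 6.04 and 8.72 in December, 73.6 and 68.2 in October and 17.6 and 13.3 in January, with RNA of 96.6, 89.6 and 64.2 TPM in December, 524, 451 and 651 TPM in October and 76.4, 94.2 and 128 TPM in January. There the RNA of December and January overlapped while the signal did not. As deposited the signals departed by -4.655 (SE 0.68), -1.649 (SE 0.26) and -2.049 (SE 0.38). Limma gave these departures adjusted p-values of 0.00864, 0.0131 and 0.0293. Relative to the median of all regions they were -4.79, -1.78 and -2.19, which was not tested. All 6 of these H3K4me3 calls were lost without a filter on low signal, where the adjusted p in limma was 0.166 to 0.408. Without January replicate 3 the adjusted p in limma was 0.0654 at scaffold 4, 9600251, 0.0667 at scaffold 5, 13017500, 0.0741 at scaffold 10, 557556, and 0.0658 at scaffold 1, 4914219. Without December replicate 2 it was 0.0505 at scaffold 10, 557556, and 0.0584 at scaffold 1, 4914219. The signal of the 2 largest rises was not called: it was 79.8 and 66.4 in December, 50.5 and 56.3 in October and 33.5 and 35.4 in January at PRUPE_ppa021384mg (adjusted p 0.171 in limma), and 147 and 150.2, 143 and 138, and 96.4 and 77.2 in the same order of dates at PRUPE_ppa022712mg (adjusted p 0.237 in limma).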

How the data were processed

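The RNA values are TPM deposited by the authors, and each library sums to 1000000. Reads were paired, 75 bp each, per the labels. Per the submitters' processing notes, RNA was processed with TopHat and Picard, and H3K4me3 with FastQC, Trimmomatic, Bowtie2, Picard and DiffBind (no versions given). No source used here names the program behind the TPM or the genome build. The H3K4me3 signal deposited by the authors is called TMM per the file headers. All of its values (100%, within 0.01) are whole multiples of 1 step per library, 14216613 to 28126160 steps, treated as recovered reads for edgeR. Regions at the lowest value made up 25.9% to 32.8% of a library. Whether a control was subtracted is not given, and the 6 H3 and 6 input libraries are not used here.

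Limma 3.58.1 (R 4.3.3) was run with a trend on log2(TPM + 1) and on log2(signal + 1), with date as the only factor, and p-values were adjusted by Benjamini-Hochberg over 18384 genes or 15360 regions (those reaching a signal of 10 in 2 or more of the 6 libraries). edgeR 4.0.16 was an alternative. The fits were tested on simulated data. Regions spanning 500 bp before to 1500 bp into a gene, the window of all 671 regions with an identifier once 1 bp is added to the starts in the RNA tables, were joined to genes (23473 of 25635). The replicate number was not used to pair libraries in the main fits. It did not pair the RNA libraries, and whether it pairs those of H3K4me3 was not settled. By identifier the text names the 2 largest log2 changes per direction among called genes with separate December libraries and at least 5 TPM in December (rises) or at both ends (falls). By position it gives ranks 3 to 8, the 3 largest in TPM, the 3 largest with ends within 0.25, and the 3 called in both assays with the largest product of changes. Neighbouring genes and runs, and 2 falls outside the rule, were chosen after their values were seen. The comparison, lists and rules were chosen with earlier results of these data known. No gene lists by name were tested, because identifiers have no names. Other pseudocounts, filters, scalings, trends, weights and left-out libraries were tried.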

Additional observations from a re-analysis of the deposited data

How the results depend on the processing

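For RNA, the 20 alternatives kept all counts of called genes, of higher and lower genes and of those at least 2-fold changed within 1.5 times the reported ones. Leaving out 1 library at a time gave 6762 to 8216 calls. Over the named genes and these alternatives, 593 RNA calls stood, 1 was lost and 0 changed sign. The named genes were chosen for large changes, which favours this result, and the share of all calls that stood was not counted. Of the H3K4me3 calls at genes called in both assays, 71 stood and 13 were lost. The H3K4me3 counts (total, higher, lower) moved from 47, 22 and 25 to 23, 9 and 14 with a pseudocount of 0.1, to 118, 67 and 51 with one of 10, and to 0, 0 and 0 without a filter on low signal. With a signal of at least 50 required they were 391, 312 and 79, with medians aligned 647, 252 and 395, after quantile normalization 1332, 606 and 726, and by edgeR on recovered reads 452, 169 and 283. Without single libraries they ran from 37 to 5506 in total, 17 to 5284 higher and 11 to 222 lower. The cause was not tested. At regions with at least the median H3K4me3 level, the median departure relative to all joined genes was 0.049 for genes with higher RNA and -0.058 for genes with lower RNA. The share of the October to January change present in December was 73.8% for genes changed at least 4-fold, and 75.9% to 79.8% without single libraries. With the replicate number as a block, 7799 genes and 211 regions (143 higher, 68 lower) were called. Deviations of same-numbered RNA libraries correlated at -0.086 to 0.105, and 4 of 9 libraries correlated best with their own number. The RNA libraries are therefore taken to share only a number. For H3K4me3 the range was -0.102 to 0.529, the highest being between October and December, and 4 of 6 libraries correlated best with their own number. With 2 libraries per date, other-numbered pairs give the same values with opposite sign. Whether the number pairs the H3K4me3 libraries was thus not settled. Depth behind the TPM is unknown, and 2 libraries per date limit the H3K4me3 test.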

Other observations

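On each of scaffolds 1 to 8, 19.2% to 22.4% of tested genes were higher and 23.7% to 25.5% lower, and the median departure was -0.053 to -0.022 log2 units. On every one of these scaffolds genes at least 2-fold lower outnumbered those at least 2-fold higher, from 64 against 42 on scaffold 8 to 184 against 77 on scaffold 1.

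The kinds of identifier differed. Of the 1362 identifiers that begin with EPlPPEG, 130 were tested, with a median listed span of 162 bp. In December 20 of the 130 were higher (15.4%) and 11 lower (8.46%), beside 20.8% and 24.4% of all tested genes. At least 2-fold higher were 15 of the 130 and at least 2-fold lower 5, beside 1.86% and 4.42% of all tested genes. The SE of the EPlPPEG identifiers was large, with a median of 0.70 log2 units, against 0.12 for the 17883 tested identifiers beginning with PRUPE_ppa. Those beginning with PRUPE_ppb, 371 tested, were 9.97% higher and 17.8% lower, beside 21.0% and 24.6% for PRUPE_ppa, and their median SE was 0.21. The part of their noise in these shares was not tested.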
